A study of Mus musculus with 40 samples.

Results

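The Zfp genes are the mouse genes whose symbol is Zfp followed by a digit, a label given to proteins with zinc finger repeats and often with no other name. The expression table held 363 such symbols once Zfp36, Zfp36l1 and Zfp36l2 were set aside, a group of 3 RNA-binding proteins with an unrelated kind of zinc finger. Of these, 239 reached 20 tags per 10 M sequenced tags (M, mega) in at least 2 of the 6 RNA-Seq libraries and are the members described here, among 22865 genes with a symbol and 10713 genes that passed the same level filter. The other 124 symbols stayed below it. Zfp248, Zfp369 and Zfp963 lay just inside, with a second-highest level of 20.46, 21.01 and 21.12 tags per 10 M, and Zfp11, Zfp420 and Zfp566 just outside, with 19.8, 19.0 and 18.7.

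Most Zfp proteins carry an array of C2H2 zinc fingers, each of which grips a few bases of DNA through a zinc-bound fold. Many also carry a KRAB domain, which recruits Trim28 (KAP1) and through it histone H3K9 methyltransferases, HP1 proteins and DNA methyltransferases, so that the bound site is silenced. KRAB zinc finger genes have multiplied by local duplication into dense arrays, and many of them bind retroelements. The symbol does not tell whether a gene has a KRAB domain, so the members are a family by name and fold and not by a shared target.

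Peritoneal macrophages drawn into the cavity by thioglycollate broth came from a pair of inbred mouse strains, C57BL6/J and BALBc/J. They were plated overnight and given fresh medium with 100 ng/ml of Kdo2-lipid A (KLA), a pure Toll-like receptor 4 ligand, for 1 hr or 4 hr, or fresh medium alone, called no treatment here. RNA-Seq of polyadenylated RNA covered all 3 conditions, while GRO-Seq, which reads RNA still being made by the polymerase, and ChIP-Seq covered no treatment and 1 hr. Each strain and condition had 1 library per assay, except p65 ChIP-Seq with 2, so the strains serve as the 2 replicates of a treatment. The labels do not tie libraries to separate animals. A p-value here is read against the spread between libraries that treatment and strain leave over. That spread mixes any strain-specific response with library differences, part of which may be technical. For GRO-Seq it was taken from the trend over all genes, as given below.

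RNA-Seq libraries held 17.0 to 20.3 M tags and GRO-Seq libraries 39.4 to 48.3 M tags, so that 20 tags per 10 M stood for 33.96 to 40.5 and 78.7 to 96.6 sequenced tags. The 8 macrophage markers summed to 78852 to 106718 tags per 10 M in RNA-Seq. The 4 T and NK cell markers summed to at most 4.52 and the 2 globin genes to at most 1.48. B cell markers summed to 37.7 to 71.5, and neutrophil markers to 1.75 to 15.6 over the 3 of 4 that were listed. Mast cell markers summed to 6.02 to 28.7 and eosinophil markers to 52.6 to 90.1, with Epx and Prg2 near 0. The 4 mesothelial and fibroblast markers summed to 991 to 1181 without treatment, to 494 to 836 at 1 hr and to 407 to 1178 at 4 hr, and their part in the changes below was not tested. In bulk samples, fewer cells that express a gene and less RNA per cell cannot be told apart.

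The members were mostly lowly expressed. Their mean RNA-Seq level had a median of 70.2 tags per 10 M, against 215 for all genes tested, and ran from 12.9 to 1066, although their transcripts were longer (median 3597 bases, against 2841). Only 9 members averaged 500 or more, and 169 reached 20 in all 6 libraries. Per kb of transcript, the highest untreated member was Zfp207, a spindle protein that loads the checkpoint factor Bub3 at kinetochores, with 381 tags per 10 M per kb in C57BL6/J and 502 in BALBc/J. Zfp385c followed with 358 and 233, then Zfp655 with 226 and 325, Zfp385a, a cofactor of p53, with 273 and 250, and Zfp91, a ubiquitin ligase of the noncanonical NF-kB pathway, with 222 and 226. Zfp207 lay above the others in both strains. Zfp385c, Zfp655 and Zfp385a overlapped over the strains, so that their order does not stand beyond the spread.

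After 1 hr of KLA the family as a group was lower in mature RNA. The median member stood at 55.6 tags per 10 M after 1 hr in C57BL6/J, against 94.1 without treatment, and at 53.8 in BALBc/J, against 98.1. The fitted log2 change, estimated by limma on log2(tags per 10 M + 10), was -0.61 for the median member and -0.20 for the median of all genes tested. It was below 0 in 217 of the 239 members, or 90.8%, against 75.2% of all genes. With a call set at a Benjamini-Hochberg adjusted p under 0.05 and a log2 change of 1 or more in size, 42 members fell and 1 rose. That is 17.6% lower among members, beside 1.45% of all genes tested, and 0.418% higher, beside 1.82%. All 43 called members changed in the same direction in both strains. The call nearly requires this, as the strains are its only replicates, so it is no separate support. The median change was -0.53 in C57BL6/J and -0.69 in BALBc/J.

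The count rests on modest numbers of tags and depends on the scale. When each library was centred on its median gene, 27 members were lower, 11.3% beside 0.719% of all genes, and 1 higher, 0.418% beside 2.24%. With a pseudocount of 50 in place of 10 only 6 were called lower (2.51%, beside 0.355% of all genes), and with genes of a mean of 50 or more only 22 of 151 (14.6%, beside 1.09%). Without the level filter 7 were lower (2.93%, beside 0.140%), and without the C57BL6/J library at 1 hr 66 (27.6%, beside 5.35%). A set of 16 members reached 20 tags only in the untreated libraries, and so passed the filter through the group in which they were high. They gave 4 of the 42 calls, and the remaining 223 members gave 38. Between 35.6 and 153 tags per 10 M, the middle range of the members, 29 of 119 members fell (24.4%), beside 61 of 3031 other genes (2.01%), and no member rose, beside 0.891%.

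**Figure D1:**
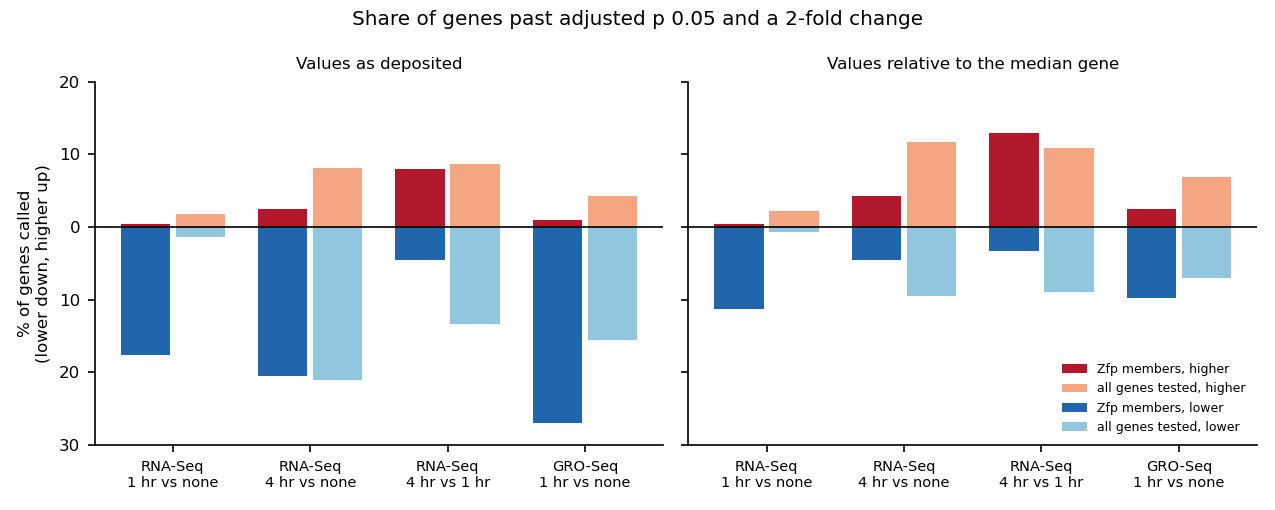
Percentage of Zfp members (dark bars) and of all genes tested (pale bars) called higher (up) or lower (down) in each comparison, with values as deposited (left) and with every library centred on its median gene (right). At 1 hr in RNA-Seq 17.6% of members were lower, beside 1.45% of all genes, while at 4 hr the lower bars for members and all genes are close, 20.5% beside 21.1%, on the values as deposited.

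Zfp319 fell most among the 42. It had 161, 24.2 and 196 tags per 10 M in C57BL6/J without treatment, at 1 hr and at 4 hr, and 129, 25.3 and 270 in BALBc/J. Both libraries at 1 hr lay far below all 4 others, and the levels at 4 hr were above those without treatment in both strains. The fitted log2 change at 1 hr was -2.15 with a standard error of 0.22 (limma, adjusted p = 0.00121). From 1 hr to 4 hr the change was 2.79 with a standard error of 0.22 (limma, adjusted p = 5.14e-05), the highest of any member.

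Zfp472, in a dense array on chromosome 17, had 120, 19.2 and 46.1 tags per 10 M over the 3 conditions in C57BL6/J, and 128, 22.8 and 60.7 in BALBc/J. Its 1 hr change was -2.11 with a standard error of 0.19 (limma, adjusted p = 0.000538). In contrast to Zfp319 it was still lower at 4 hr than without treatment, by -1.08 (limma, adjusted p = 0.00205), though not after centring (-0.65). Its neighbours Zfp763 and Zfp870 fell by 1.91 and 1.84 at 1 hr. Zfp763 had 47.02, 11.98 and 31.1 tags in C57BL6/J and 74.9, 5.63 and 24.1 in BALBc/J, so that even its highest value was low.

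Zfp87 and Zfp748, which share an array on chromosome 13, fell by 1.97 and 1.94 at 1 hr (limma, adjusted p = 0.000871 and 0.000778). Zfp87 had 144, 33.3 and 94.2 tags per 10 M in C57BL6/J over the 3 conditions and 180.2, 34.4 and 92.04 in BALBc/J. Zfp748 had 109, 20.999 and 65.4 in C57BL6/J and 129.9, 26.4 and 86.3 in BALBc/J. Both genes were lowest at 1 hr and intermediate at 4 hr in each strain. Zfp39 and Zfp128 fell by 1.72 and 1.61 at 1 hr. At 4 hr Zfp128 was at 40.8 tags per 10 M in C57BL6/J, against 44.6 without treatment, and at 41.7 in BALBc/J, against 43.8. Of these 8 genes, Zfp128, Zfp39, Zfp763 and Zfp870 lost the call at a pseudocount of 50, and Zfp128 and Zfp763 without the level filter (adjusted p = 0.0591 and 0.0948).

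Zfp719 was the only member called higher at 1 hr. It had 79.98, 331 and 195 tags per 10 M without treatment, at 1 hr and at 4 hr in C57BL6/J, and 98.6, 294 and 207 in BALBc/J. All 4 KLA libraries lay above both untreated ones, with the highest level at 1 hr. Its log2 change was 1.70 at 1 hr and 1.09 at 4 hr, each with a standard error of 0.20 (limma, adjusted p = 0.00208 and 0.00221).

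**Figure D2:**
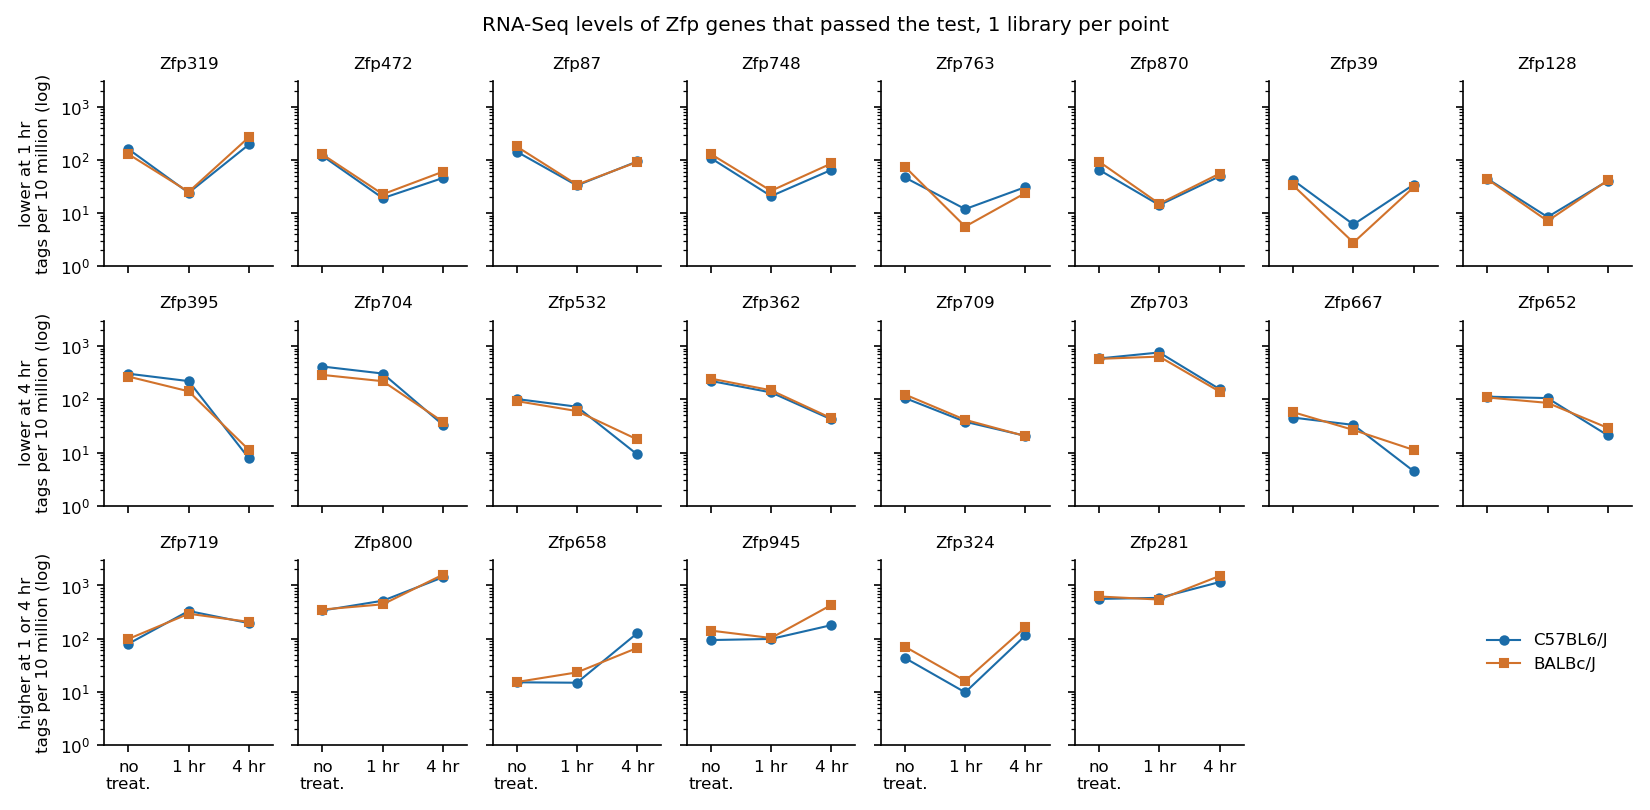
RNA-Seq level (tags per 10 M, log axis) of 22 Zfp genes in C57BL6/J (circles) and BALBc/J (squares) without treatment and after 1 hr and 4 hr of KLA, 1 library per point. The upper row dips at 1 hr and comes back in whole or in part at 4 hr, the middle row is lowest at 4 hr, and in the lower row Zfp719 peaks at 1 hr while Zfp324 dips at 1 hr and is highest at 4 hr.

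The promoters of members that define these time courses are shown for their letters, 300 bases from 250 before to 50 after the RefSeq transcription start on GRCm38.p6. The 4 that fell at 1 hr are Zfp319 (chr8:95331762-95332061, minus strand), Zfp472 (chr17:32965581-32965880, plus strand), Zfp748 (chr13:67553103-67553402, minus strand) and Zfp128 (chr7:12880928-12881227, plus strand). The 2 that rose are Zfp719 (chr7:43579336-43579635, plus strand) and Zfp800 (chr6:28397956-28398255, minus strand), whose rise at 4 hr is given below. Capitals mark matches, on either strand, to TGACGTCA (the CREB and ATF palindrome), CCGGAAG (ETS type), GCATGCGC (the NRF1 core), ACTACAATT (from the element bound by Zfp143), AAGATGGCG (the YY1 type), TATAAA (the TATA box), GAGGAAGT (the PU.1 type of ETS site) or GGAAGTG (also ETS type). Zfp128 is shown for its match to ACTACAATT. In Zfp719 the matches to GCATGCGC on the 2 strands overlap.
Zfp319: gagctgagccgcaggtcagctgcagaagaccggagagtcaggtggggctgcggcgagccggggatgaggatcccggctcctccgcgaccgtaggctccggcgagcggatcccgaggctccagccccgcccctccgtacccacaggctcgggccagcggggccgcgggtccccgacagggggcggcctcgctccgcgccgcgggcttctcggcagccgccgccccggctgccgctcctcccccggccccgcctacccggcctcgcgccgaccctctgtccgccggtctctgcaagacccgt
Zfp472: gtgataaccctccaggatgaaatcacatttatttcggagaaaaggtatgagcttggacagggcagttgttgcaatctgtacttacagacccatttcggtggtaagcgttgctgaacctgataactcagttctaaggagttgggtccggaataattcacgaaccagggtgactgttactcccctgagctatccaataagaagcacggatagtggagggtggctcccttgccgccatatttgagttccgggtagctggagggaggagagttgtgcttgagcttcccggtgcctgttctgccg
Zfp748: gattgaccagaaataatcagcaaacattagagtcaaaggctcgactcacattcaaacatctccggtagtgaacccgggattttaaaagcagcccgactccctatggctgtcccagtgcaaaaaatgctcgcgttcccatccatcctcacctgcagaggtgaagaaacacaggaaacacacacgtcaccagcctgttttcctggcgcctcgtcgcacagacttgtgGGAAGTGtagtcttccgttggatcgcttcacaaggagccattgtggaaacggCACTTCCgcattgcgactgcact
Zfp128: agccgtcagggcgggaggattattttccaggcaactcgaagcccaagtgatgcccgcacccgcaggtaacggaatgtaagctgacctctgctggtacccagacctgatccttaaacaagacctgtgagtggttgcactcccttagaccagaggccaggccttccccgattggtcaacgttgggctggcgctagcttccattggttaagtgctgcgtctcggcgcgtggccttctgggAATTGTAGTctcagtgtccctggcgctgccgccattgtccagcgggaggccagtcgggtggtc
Zfp719: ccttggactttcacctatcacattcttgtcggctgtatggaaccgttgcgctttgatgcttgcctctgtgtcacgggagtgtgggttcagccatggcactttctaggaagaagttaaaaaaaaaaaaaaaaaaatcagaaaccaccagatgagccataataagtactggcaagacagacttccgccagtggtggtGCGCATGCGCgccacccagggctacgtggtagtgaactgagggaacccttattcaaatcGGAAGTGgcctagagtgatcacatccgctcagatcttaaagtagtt
Zfp800: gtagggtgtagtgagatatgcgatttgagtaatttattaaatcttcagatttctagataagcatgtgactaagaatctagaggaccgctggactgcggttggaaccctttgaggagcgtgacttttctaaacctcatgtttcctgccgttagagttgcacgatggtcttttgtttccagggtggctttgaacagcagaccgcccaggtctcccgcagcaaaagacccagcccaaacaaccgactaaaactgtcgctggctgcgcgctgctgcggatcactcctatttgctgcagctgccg

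The Zfp319 promoter, at 77.3% G and C, lay apart from the others, which ranged from 47.7% in Zfp719 to 59.3% in Zfp128. A RefSeq promoter was found by symbol for 198 members, and their median G and C content was 56.7%, against 61.0% for 8594 tested genes with a promoter. The motif ACTACAATT lay in 6 member promoters (3.03%), beside 0.884% of the tested genes and 0.433% of all 27025 promoters. The holders were Zfp1, Zfp58, Zfp111, Zfp128, Zfp180 and Zfp692, of which Zfp58 and Zfp128 were called lower at 1 hr. GGAAGTG, an ETS-type sequence, lay in 27.3% of member promoters, 15.8% of those of tested genes and 11.2% of all. CCGGAAG, another ETS-type sequence, lay in 21.7%, 19.9% and 9.12%. TGACGTCA lay in 9 member promoters (4.55%, beside 3.34% and 1.88%) and in none of the 37 promoters of members that were lower at 1 hr. Of those 37, GGAAGTG lay in 18.9%, CCGGAAG in 21.6% and TATAAA in 13.5%, which is 5 promoters, beside 5.56% of all member promoters and 6.67% of those of tested genes for TATAAA. GCATGCGC lay in 5.56% of member promoters and 5.82% of those of tested genes, AAGATGGCG in 3.03% and 3.65%, and GAGGAAGT in 2.53% and 3.34%. A match describes letters in the window and no binding, and GAGGAAGT and GGAAGTG were added after the first results were seen.

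At 4 hr of KLA the share of members that were lower was close to that of all genes on the values as deposited. The median member change from no treatment was -0.58 and that of all genes -0.47 on the log2 scale. A total of 49 members fell (20.5%, beside 21.1% of all genes tested) and 6 rose (2.51%, beside 8.06%). All 55 changed in the same direction in both strains, which the call again nearly requires. After centring on the median gene 11 were lower and 10 higher (4.603% and 4.18%, beside 9.51% and 11.7%). At a pseudocount of 50, 13 were lower and 3 higher (5.44% and 1.26%, beside 11.9% and 6.41%). The closeness of the lower shares and the split between lower and higher calls therefore depend on the processing. The closeness also depends on single libraries. Without the BALBc/J library at 4 hr the lower share of members lay above that of all genes. Without the C57BL6/J library at 4 hr it lay below. The median member changed by -0.66 in C57BL6/J and -0.52 in BALBc/J, where the median of all genes was -0.47 in each. Members that reached 20 tags only without treatment gave 7 of the 49. In the middle range of levels 21.8% of members and 25.2% of other genes were lower, and 2 members were higher, beside 5.41%.

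The steepest fall at 4 hr was that of Zfp395, a factor first described as binding the huntingtin gene promoter. It had 304, 220 and 7.75 tags per 10 M without treatment, at 1 hr and at 4 hr in C57BL6/J, and 268, 142 and 11.2 in BALBc/J. The 4 hr libraries of both strains lay far below all others, and the log2 change was -3.93 with a standard error of 0.24 (limma, adjusted p = 9.55e-06). In GRO-Seq it was already at 7.85 tags in C57BL6/J and 9.83 in BALBc/J after 1 hr, against 70.9 and 63.5 without treatment, a change of -2.03 with a standard error of 0.32 (limma, adjusted p = 4.85e-09).

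Zfp704 followed with 414, 306 and 33.0 tags per 10 M over the 3 conditions in C57BL6/J and 288, 219 and 37.7 in BALBc/J. Its change at 4 hr was -2.97 with a standard error of 0.22 (limma, adjusted p = 2.71e-05), and both 4 hr values lay far below the other 4. Zfp703, whose human counterpart is a corepressor amplified in breast cancers, had 587, 761 and 156 in C57BL6/J and 577, 636 and 139.9 in BALBc/J. It was therefore highest at 1 hr in each strain, though that rise was not called (log2 change 0.25), and fell by 1.91 at 4 hr against no treatment and by 2.16 against 1 hr (limma, adjusted p = 7.93e-05 and 5.58e-05).

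Zfp652, whose human counterpart is a repressor that pairs with CBFA2T3, had 112, 106 and 20.96 tags per 10 M in C57BL6/J and 108, 85.8 and 29.003 in BALBc/J. Its RNA change was -0.19 at 1 hr, which was not called, and -1.79 at 4 hr (limma, adjusted p = 0.000288). Zfp362 changed by -2.197 and Zfp709 by -2.03 at 4 hr, and Zfp709 also by -1.33 at 1 hr. Zfp532, on chromosome 18, changed by -2.21 at 4 hr and Zfp667 by -1.804. Zfp667 had at most 57.4 tags per 10 M and lost its call at a pseudocount of 50. Zfp655 and Zfp91, among the highest members per kb, fell by 1.72 and 1.10 at 4 hr, Zfp91 to 475 tags in C57BL6/J and 712 in BALBc/J, against 1243 and 1269.7 without treatment. On the centred scale Zfp91 was not called (log2 change -0.66).

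The 6 members that rose at 4 hr were Zfp800, Zfp658, Zfp945, Zfp324, Zfp281 and Zfp719. Zfp800 had 338, 517 and 1429 tags per 10 M in C57BL6/J and 353, 442 and 1600.2 in BALBc/J. Its levels were in the same order in each strain, and the change at 4 hr was 2.10 with a standard error of 0.18 (limma, adjusted p = 5.60e-05).

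Zfp658, whose human relative ZNF658 regulates genes that respond to zinc, had 15.1, 14.8 and 127 tags per 10 M in C57BL6/J and 15.3, 23.2 and 67.0 in BALBc/J. The 4 hr values lay above all others, and the change was 2.03 with a standard error of 0.29 (limma, adjusted p = 0.000769). Zfp658 passed the RNA-Seq level filter only through KLA libraries, including those at 4 hr, the group in which it was high. Zfp281, a factor that restrains pluripotency genes in embryonic stem cells, had 558, 585 and 1159 in C57BL6/J and 620.2, 543 and 1510 in BALBc/J, and rose by 1.16 at 4 hr (limma, adjusted p = 0.00137). Zfp945 rose by 1.20, with 179 tags at 4 hr in C57BL6/J, against 94.1 without treatment, and 430 in BALBc/J, against 142. Without the BALBc/J library at 4 hr, Zfp281 and Zfp945 changed by 0.98 and 0.74 and were not called, both being under the size limit.

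Zfp324 was the only member called in opposite directions at the 2 times. It had 43.3, 9.77 and 116 tags per 10 M without treatment, at 1 hr and at 4 hr in C57BL6/J, and 70.6, 16.1 and 165 in BALBc/J. The 3 conditions did not overlap across strains. The change was -1.53 at 1 hr and 1.18 at 4 hr, each with a standard error of 0.19 (limma, adjusted p = 0.00324 and 0.00133), and the 4 hr call was lost at a pseudocount of 50 (0.83).

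Set directly against 1 hr, the 4 hr libraries were higher for 19 members (7.95%, beside 8.62% of all genes tested) and lower for 11 (4.603%, beside 13.4%). The median member changed by 0.05 and the median of all genes by -0.27 on the log2 scale. With centred libraries 31 members were higher and 8 lower (12.97% and 3.35%, beside 10.9% and 8.9%). The largest rises were in Zfp319, Zfp324 (2.71), Zfp658 (1.84), Zfp800 (1.64) and Zfp39 (1.57), and the largest falls in Zfp395 (-3.27), Zfp704 (-2.57), Zfp703 (-2.16), Zfp532 (-1.73) and Zfp652 (-1.60). With a pseudocount of 50, Zfp39, Zfp532 and Zfp652 missed the size limit, at 0.60, -0.88 and -0.96.

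GRO-Seq at 1 hr asks whether transcription of the same genes had changed at the time when their mature RNA was low. Of the 239 members, 204 passed the level filter in GRO-Seq and 35 did not. The median member stood at 22.9 tags per 10 M after KLA in C57BL6/J, against 50.0 without treatment, and at 38.0 in BALBc/J, against 59.7. A total of 55 members were lower (26.96%, beside 15.5% of 9124 genes tested) and 2 higher (0.980%, beside 4.31%). All 57 changed in the same direction in both strains, which a call on the mean of only 2 strains makes likely. The median change was -0.60 for members and -0.34 for all genes. It was -0.83 in C57BL6/J, where the median of all genes was -0.57, and -0.38 in BALBc/J, where it was -0.10. The exon tags of the C57BL6/J library after KLA were 7.39% of its total, against 8.98 to 9.83% in the other 3 libraries. After centring, 20 members were lower and 5 higher (9.80% and 2.45%, beside 6.99% and 6.81%), and at a pseudocount of 50 only 4 were lower, a share below that of all genes (1.96%, beside 3.61%). A set of 31 members reached 20 tags in GRO-Seq only without treatment and so passed the filter through the group in which they were high, among them Zfp395, Zfp652 and Zfp40. They gave 26 of the 55 calls. The remaining 173 members gave 29 (16.8%, beside 11.2% of the 8273 genes chosen likewise). The GRO-Seq model had 1 residual degree of freedom, and limma then took each gene's variance from the trend over all genes.

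Zfp710 and Zfp292 fell most in GRO-Seq. Zfp710 was at 26.98 tags per 10 M in C57BL6/J and 37.3 in BALBc/J after KLA, against 246 and 206 without treatment, a log2 change of -2.49 with a standard error of 0.35 (limma, adjusted p = 4.28e-11). Its mature RNA changed by -0.78 at 1 hr, which was not called, and was at 626 and 960 tags at 4 hr, above the untreated 583 and 585. Zfp292, a long zinc finger protein first found as a regulator of the growth hormone gene, was at 30.4 and 24.9 after KLA, against 218 and 178, a change of -2.46 with a standard error of 0.35 (limma, adjusted p = 1.20e-10). Its mature RNA was not called at 1 hr (-0.29) and fell by 1.17 at 4 hr, which was not called after centring (-0.73).

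Zfp652 was at 5.51 tags per 10 M in C57BL6/J and 10.95 in BALBc/J in GRO-Seq after KLA, against 70.2 and 54.5 without treatment, a change of -1.996 (limma, adjusted p = 2.92e-09). Zfp316, Zfp40, Zfp157 and Zfp444 fell by 1.84, 1.71, 1.70 and 1.69. In each of these genes both KLA libraries lay below both untreated ones. At a pseudocount of 50 the calls of Zfp395, Zfp652, Zfp40, Zfp157 and Zfp444 were lost, at changes of -0.99 to -0.82.

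The 2 members higher in GRO-Seq were Zfp263 and Zfp658. Zfp263 was at 519 tags per 10 M in C57BL6/J and 614 in BALBc/J after KLA, against 248 and 202 without treatment, a change of 1.30 with a standard error of 0.30 (limma, adjusted p = 0.000125). Its mature RNA changed by 0.28 at 1 hr and 0.49 at 4 hr, neither of which was called. Zfp658 was at 51.7 and 71.5 after KLA, against 22.4 and 20.7, a change of 1.17 (limma, adjusted p = 0.00450) that was lost at a pseudocount of 50. In mature RNA Zfp658 was at 14.8 and 23.2 tags at 1 hr and higher at 4 hr.

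The members called lower in GRO-Seq and in mature RNA at 1 hr overlapped in part. Among 204 members tested in both, 40 were lower in RNA-Seq and 55 in GRO-Seq, and 13 were on both lists, 23.6% of the GRO-Seq list and 32.5% of the RNA-Seq list. Among all 204, 19.6% were lower in RNA-Seq and 26.96% in GRO-Seq, so each list held the other's members at a share not far from that of the family. None of the 204 was called in opposite directions. Of the 40 lower in RNA-Seq, 37 had a GRO-Seq change below 0 (92.5%, beside 88.2% of the 204), and of the 55 lower in GRO-Seq, 54 had an RNA-Seq change below 0 (98.2%, beside 92.6%). Across the 204 members the 2 changes had a Pearson r of 0.26 and a Spearman rho of 0.21, against 0.51 and 0.33 across 8402 genes. These are descriptions across genes, which are not independent and share libraries.

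The difference between the assays was tested directly. The 1 hr change was higher in GRO-Seq than in RNA-Seq for 19 members (9.31%, beside 4.37% of 8402 genes) and lower for 12 (5.88%, beside 8.58%). With centred libraries 23 were higher and 10 lower (11.3% and 4.90%, beside 5.87% and 6.27%). At a pseudocount of 50 only 3 were higher, a share below that of all genes (1.47%, beside 1.99%). As in the GRO-Seq model, limma took each gene's variance in this joint fit from the trend over all genes. Zfp319 differed most in the first direction. In GRO-Seq it was at 51.9 tags per 10 M in C57BL6/J and 80.3 in BALBc/J after KLA, against 60.4 and 73.9 without treatment, and the groups overlapped. The difference between its GRO-Seq and RNA-Seq changes was 2.11 with a standard error of 0.34 (limma, adjusted p = 3.52e-08). Zfp87, Zfp748, Zfp472 and Zfp768 followed with 1.54, 1.44, 1.41 and 1.34. Zfp768 was at 36.2 and 59.7 in GRO-Seq after KLA, against 42.3 and 44.0, while its mature RNA fell by 1.24 at 1 hr.

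In the other direction the difference was -2.17 for Zfp292 (limma, adjusted p = 2.51e-08), -1.80 for Zfp652, -1.71 for Zfp710, -1.40 for Zfp182 and -1.38 for Zfp444. Zfp182 had 84.1 and 71.6 tags of mature RNA at 1 hr, against 83.9 and 75.9 without treatment. Its GRO-Seq level was 33.8 and 40.0 after KLA, against 117 in each strain without treatment. Zfp128, Zfp324, Zfp763 and Zfp157 differed by at most 0.41 in size between the assays, and were lower in both. At a pseudocount of 50 the differences of Zfp472, Zfp748, Zfp768, Zfp182, Zfp444 and Zfp652 were not called, and without the level filter those of Zfp87, Zfp472, Zfp768 and Zfp444 were not.

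**Figure D3:**
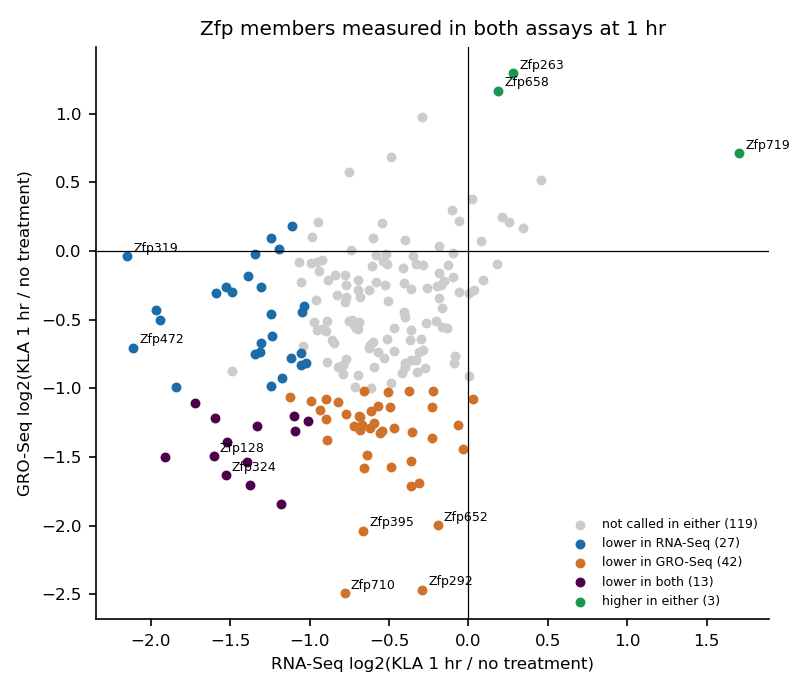
Change after 1 hr of KLA in RNA-Seq (x axis, log2) against GRO-Seq (y axis, log2) for the 204 Zfp members tested in both, coloured by call. Zfp319 lies at the far left with a GRO-Seq change of -0.04, Zfp710 and Zfp292 lie at the bottom with RNA-Seq changes that did not pass the test, and 13 members are lower on both axes.

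Many members lie in arrays. A cluster was taken as a chain of Zfp symbols on 1 chromosome with neighbouring starts at most 500 kb apart and at least 3 members. There were 18 clusters, which held 115 members, and 124 lay outside. Chromosome 7 carried 56 members, chromosome 17 carried 33, and chromosomes 8 and 13 carried 18 each. The sources used here do not say how the counting treated tags that match several relatives, or whether it used strand. Clustered relatives, and genes that overlap on opposite strands, can therefore not be fully told apart.

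At 1 hr, 30 of the 115 clustered members fell in RNA-Seq (26.1%), against 12 of the 124 outside clusters (9.68%), beside 1.45% of all genes. At 4 hr 23 clustered members (20.0%) and 26 others (20.97%) were lower, beside 21.1% of all genes. After centring the 4 hr counts were 2 (1.74%) and 9 (7.26%), beside 9.51%. At a pseudocount of 50 they were 1 (0.870%) and 12 (9.68%), beside 11.9%. In GRO-Seq at 1 hr, 23 of 95 clustered members (24.2%) and 32 of 109 others (29.4%) were lower, beside 15.5%. The clustered genes were the lower expressed ones, with a median mean level of 51.4 tags per 10 M, against 102 outside. Among members with a mean of 50 or more, 15 of 60 clustered members (25.0%) and 7 of 91 others (7.69%) were lower at 1 hr. After centring the 1 hr counts were 22 (19.1%) and 5 (4.03%), beside 0.719% of all genes. At a pseudocount of 50 they were only 5 (4.35%) and 1 (0.806%), beside 0.355%. Without the level filter they were 5 (4.35%) and 2 (1.61%), beside 0.140%. Leaving out 1 library at a time gave 17.4 to 33.9% in clusters and 4.84 to 21.8% outside, and without the C57BL6/J library at 1 hr the outside count was 27. Neighbours share sequence and may share tags, so they are not independent, and no test of this difference was made.

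The cluster on chromosome 17 from 32.9 to 33.8 Mb (mm9) held 10 members, of which 5 fell at 1 hr. They were Zfp472, Zfp763, Zfp870, Zfp563 (-1.40) and Zfp799 (-1.34), and the remaining 5 ranged from -1.07 in Zfp871 to -0.47 in Zfp414. At 4 hr the members ranged from -1.12 in Zfp414 to 0.14 in Zfp952. The cluster on chromosome 7 from 13.0 to 13.6 Mb held 6 members. Zfp128, Zfp329 (-1.60), Zfp324 and Zfp606 (-1.05) fell at 1 hr in RNA-Seq, and Zfp128, Zfp324, Zfp329 and Zfp446 in GRO-Seq. After centring Zfp606 was not called in RNA-Seq (-0.84) nor Zfp329 in GRO-Seq (-0.86). At 4 hr it ranged from -1.03 in Zfp329 to 1.18 in Zfp324.

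All 3 members of a cluster on chromosome 15, Zfp41, Zfp623 and Zfp707, fell at 1 hr, by 1.05, 1.35 and 1.29, and Zfp41 and Zfp707 were also lower at 4 hr. After centring Zfp41 was not called at 1 hr (-0.83), and neither was called at 4 hr (-0.57 and -0.60). On chromosome 6, from 47.8 to 48.6 Mb, 4 of 8 members fell at 1 hr (Zfp282, Zfp212, Zfp746 and Zfp956, with changes of -1.31 to -1.02), of which Zfp746 and Zfp956 were not called after centring (-0.82 and -0.80). The 4 hr changes there ran from -1.37 in Zfp862 to -0.52 in Zfp777. In contrast, the cluster with the most members, 17 between 21.1 and 23.7 Mb of chromosome 17, had 2 lower at 1 hr and a median change of -0.36. At 4 hr it held both Zfp760 (-1.46) and Zfp945 (1.20).

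The cluster on chromosome 7 from 50.4 to 50.9 Mb (mm9) was the only one with a median above 0. It held Zfp719 and Zfp658, on the same strand with starts 17216 bp apart, and Zfp715. The first 2 rose at 4 hr, while Zfp715 fell by 1.08, though not after centring (-0.65). In GRO-Seq at 1 hr the log2 changes were 1.17 in Zfp658, 0.71 in Zfp719, which was called only after centring (1.06), and -0.56 in Zfp715.

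The other clusters are given by the range of their members at 4 hr. The range ran from -1.41 in Zfp874a to 0.28 in Zfp429 on chromosome 13, from -0.61 in Zfp397 to -0.25 in Zfp35 on chromosome 18, and from -0.72 in Zfp157 to -0.10 in Zfp68 on chromosome 5. On chromosome 7 it ran from -1.19 in Zfp524 to -0.10 in Zfp628 at 4.87 Mb, from -1.80 in Zfp667 to -0.44 in Zfp28 at 6.08 Mb and from -0.67 in Zfp526 to -0.02 in Zfp111 at 24.9 Mb. Further along that chromosome it ran from -0.73 in Zfp780b to 0.17 in Zfp607, from -0.96 in Zfp30 to 0.94 in Zfp382 and from -1.12 in Zfp646 to -0.05 in Zfp689. On chromosome 8 it ran from -0.74 in Zfp869 to -0.06 in Zfp868, and in the 2 clusters of chromosome 9 from -1.31 in Zfp266 to -0.12 in Zfp26 and from -1.40 in Zfp810 to -0.10 in Zfp653. Of the lower ends, Zfp874a, Zfp524, Zfp646, Zfp266 and Zfp810 were called on the deposited scale alone (-0.97 to -0.69 after centring). None of the genes named here as the upper end was called at 4 hr, though Zfp382 was after centring (1.37).

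**Figure D4:**
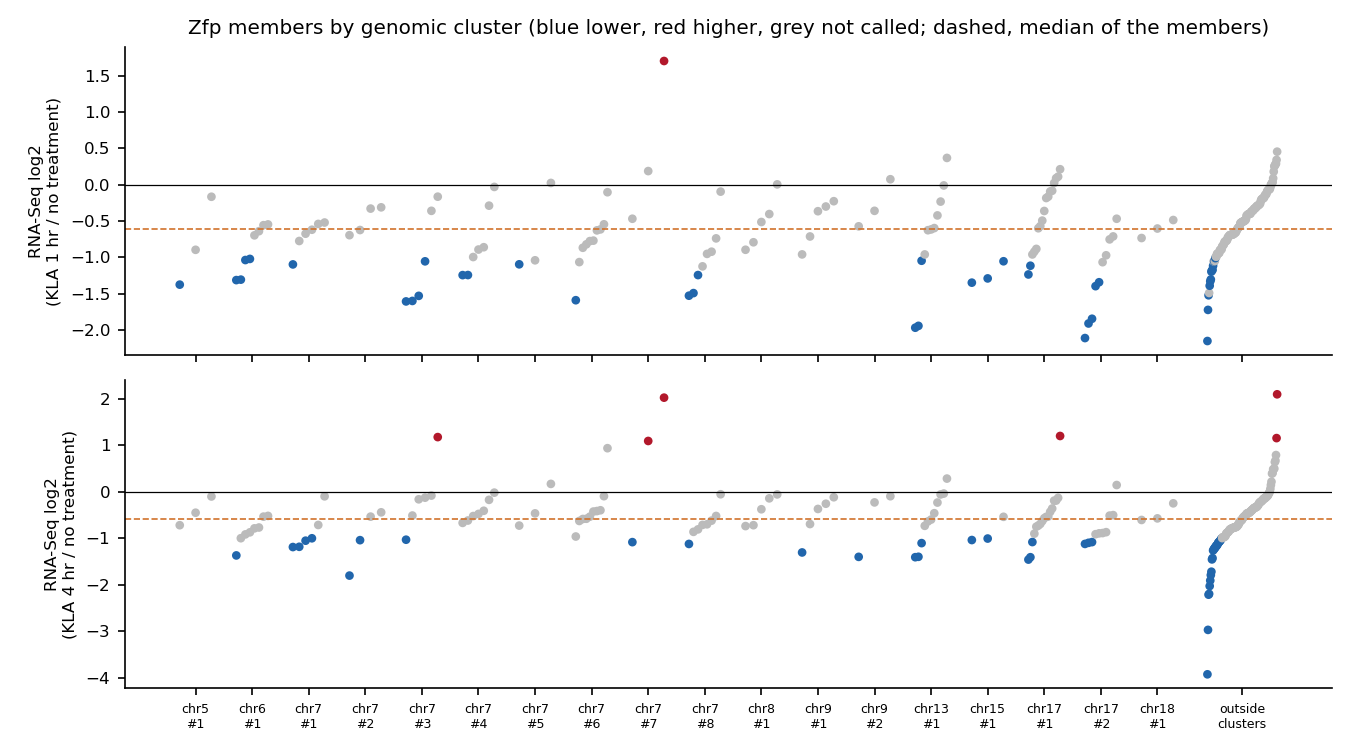
RNA-Seq log2 change of each of the 239 Zfp members after 1 hr (upper panel) and 4 hr (lower panel) of KLA against no treatment, by genomic cluster in chromosome order, with members outside clusters at the right. Blue points were called lower and red points higher, and at 1 hr the blue points make up 30 of 115 in clusters and 12 of 124 outside.

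ChIP-Seq peaks were counted at a member when they overlapped the 500 bp on either side of its transcript start. H3K4me2, a mark of promoters and enhancers, was there for 95.0 to 95.8% of members over the 4 lists, beside 93.5 to 93.8% of all genes tested. H3K27Ac, a mark of active promoters and enhancers, was there for 88.3 to 92.1% of members, beside 83.5 to 86.2%, but with fewer tags in the median region, 77.0 to 97.2 against 108 to 142 tags per 10 M. PU.1, the ETS factor that specifies macrophages, had a peak at 73.6 to 76.6% of members, beside 67.9 to 69.1%, and C/EBPa at 46.0 to 51.5%, beside 45.3 to 51.0%. The NF-kB subunit p65 after KLA had one at 41.0 to 56.9%, beside 38.7 to 57.7%. Peak tags are the authors' own values, and a gene with no listed peak may still have tags below their threshold.

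The members that fell at 1 hr had a p65 peak at their start in 28.6 to 45.2% of cases over the 4 p65 lists, against 43.7 to 59.4% of the other members. Of those 42, 10 (23.8%) had a peak in all 4 lists and 22 (52.4%) in none, beside 32.2% and 36.4% of all members and 30.9% and 33.8% of all genes tested. H3K4me2 was listed at all 42. PU.1 was listed at 81.0 to 83.3% of them, against 72.1 to 75.6% of the other members. The median log2 ratio of H3K27Ac tags, KLA over no treatment, was -0.45 in C57BL6/J and -0.46 in BALBc/J for those that fell and -0.28 and -0.21 for other members, beside -0.31 and -0.23 for all genes. These shares come from single lists and no test was made of their differences.

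**Figure D5:**
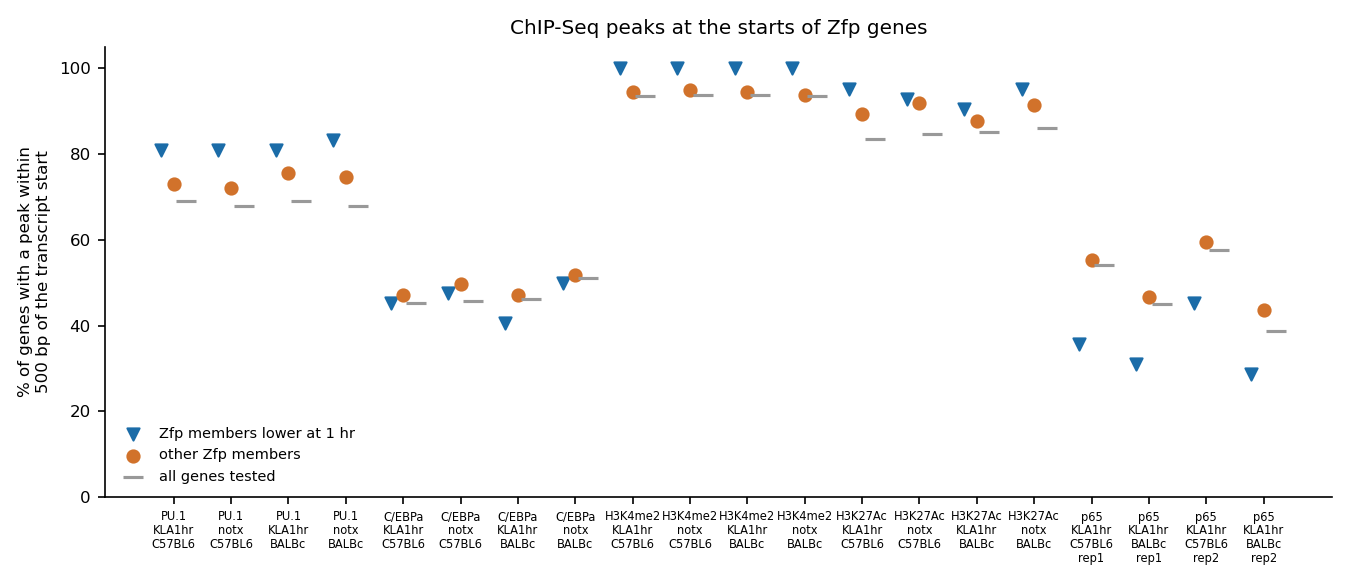
Percentage of genes with a ChIP-Seq peak within 500 bp of the transcript start, for the 42 Zfp members lower at 1 hr (triangles), the other 197 members (circles) and all genes tested (dashes), in each of the 20 lists. The triangles lie below the circles in all 4 p65 lists, 28.6 to 45.2% against 43.7 to 59.4%.

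The member with the most p65 tags at its start was Zfp719 in all 4 lists, the one that rose at 1 hr. It had 504.5 and 645 tags per 10 M in the C57BL6/J lists and 405 and 500 in the BALBc/J lists, where the median member with a peak had 35.9 and 37.5, and 29.0 and 31.4. Zfp607 came next in C57BL6/J with 271 and 437.5, and Zfp568, which silences a placental Igf2 transcript, in BALBc/J with 381 and 463. Neither of these was called in any KLA comparison. H3K27Ac at the Zfp719 start was 198 tags per 10 M in C57BL6/J after KLA, against 32.7 without treatment, and 379 in BALBc/J, against 91.7. PU.1 there was 147 and 173 after KLA, against 138 and 158.

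Of the 6 members that rose at 4 hr, 4 had p65 in all 4 lists (66.7%) and 2 in none (33.3%). The shares were 32.2% and 36.4% of all members, and 30.9% and 33.8% of all genes tested. With 6 genes these shares are imprecise, and a link of p65 to the rise was not tested. At Zfp658 p65 was 64.5 to 139 tags per 10 M and at Zfp800 29.8 to 57.1, while Zfp281 and Zfp324 had no p65 peak listed. H3K27Ac at Zfp800 was 344.5 tags in C57BL6/J after KLA, against 93.1, and 278 in BALBc/J, against 91.7. Zfp395 showed the reverse, with 49.8 in C57BL6/J after KLA, against 513, and 69.2 in BALBc/J, against 215. Zfp319, whose mature RNA fell while its GRO-Seq change was not called, had 198 in C57BL6/J after KLA, against 245, and 255 in BALBc/J, against 190.0, so the strains went opposite ways. H3K27Ac at Zfp472 was 45.5 and 84.5 after KLA, against 158 and 190.0.

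The strains differed at few members. Between C57BL6/J and BALBc/J, RNA-Seq called 1 member higher and 3 lower (0.418% and 1.26%, beside 1.2% and 2.52% of all genes tested). With centred libraries they were 1 and 2 (beside 1.56% and 2%). Zfp30, a locus linked to neutrophilic inflammation in the mouse lung, had 6.05, 0.798 and 1.35 tags per 10 M without treatment, at 1 hr and at 4 hr in C57BL6/J, and 74.5, 18.7 and 21.4 in BALBc/J. All C57BL6/J values lay below all BALBc/J values, and the difference was -1.76 with a standard error of 0.22 (limma, adjusted p = 0.00274). Zfp30 reached 20 tags only in BALBc/J, and so passed the filter through the strain in which it was high. In GRO-Seq, where it was below the filter, it was at 0.163 and 3.4 in C57BL6/J after KLA and without treatment, and at 5.08 and 19.5 in BALBc/J.

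Zfp462, a factor of heterochromatin in embryonic stem cells, differed in both assays. It had 13.3, 12.3 and 5.82 tags per 10 M of mature RNA in C57BL6/J over the 3 conditions and 65.01, 59.8 and 47.8 in BALBc/J, a difference of -1.74 (limma, adjusted p = 0.000612). It too passed the RNA-Seq filter through BALBc/J alone, the strain in which it was high. Its GRO-Seq levels were 8.87 after KLA and 21.2 without treatment in C57BL6/J, and 47.7 and 90.4 in BALBc/J, a difference of -1.65 (limma, adjusted p = 0.000270). It was the only member called between strains in GRO-Seq (0.4902% lower, beside 0.482%). None was higher, beside 0.427%, and after centring there was 1 in each direction (beside 0.954% and 0.307%). An unadjusted limma p under 0.05, in either direction, was reached by 19 members before centring and 53 after it. The share of all genes at that p was not worked out, so no strain effect on the family is read from these counts. Zfp775 was higher in C57BL6/J by 1.15, with 104, 57.3 and 57.1 tags over the 3 conditions and 38.6, 23.8 and 18.3 in BALBc/J. Zfp874a was lower by 1.01, but its call was lost after centring (-0.91), without the level filter, and without the 1 hr library of C57BL6/J or BALBc/J (-0.94 each). None of these 4 genes was called at a pseudocount of 50.

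The partners through which KRAB zinc finger proteins silence DNA were examined as a list of 28 genes, of which 25 passed the RNA-Seq filter. At 1 hr limma called none of them in mature RNA, beside 1.45% of all genes tested lower and 1.82% higher. An unadjusted limma p under 0.05 was reached by 6 of the 25. The share of all genes at that p was not worked out, so nothing is read from this count. Trim28 itself had 965, 522 and 731 tags per 10 M in C57BL6/J over the 3 conditions and 967, 702 and 960 in BALBc/J. At 4 hr 5 of the 25 were lower and 2 higher, shares close to the 21.1% and 8.06% of all genes tested. Dnmt3a, a DNA methyltransferase, had 9135, 6504 and 869 in C57BL6/J and 6290, 4815 and 1058 in BALBc/J, a change of -2.97 at 4 hr. Dnmt1, the maintenance methyltransferase, fell by 2.46. Chd3, Atf7ip and Cbx5 fell by 1.26, 1.09 and 1.06 but were not called after centring (-0.82, -0.65 and -0.63). Daxx, a chaperone of histone H3.3, rose by 3.82, to 5648 and 6091 tags at 4 hr, against 414 and 397 without treatment, and Morc3 by 1.05.

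In GRO-Seq at 1 hr 9 of the 25 partners were lower and 1 higher, beside 15.5% and 4.31% of all genes tested, and after centring 5 and 2, beside 6.99% and 6.81%. The H3K9 methyltransferase Setdb1 fell by 1.46, its cofactor Atf7ip by 1.78, Dnmt1 by 2.32 and Dnmt3a by 2.34. Setdb1 was at 56.5 and 89.9 tags per 10 M after KLA, against 228 and 201. Smarcad1, Suv39h2, Chd3, Atrx and Cbx5 fell by 1.46 to 1.11, the last 4 of them not after centring (-0.96 to -0.76), and Trim28 changed by -0.21, which was not called. The gene that was higher was Hdac1 (2.49), at 107 and 104 after KLA, against 9.72 and 11.5. Its mature RNA was at 25.4, 24.0 and 50.4 in C57BL6/J and 6.22, 1.70 and 5.63 in BALBc/J, a strain difference of 1.54, and the value is uncertain where close copies share its tags. Hdac1 passed the GRO-Seq filter only through the KLA libraries and the RNA-Seq filter only through C57BL6/J, each the group in which it was high.

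Other zinc finger families by symbol gave further values at 1 hr in RNA-Seq, where 1.45% of all genes tested were lower, 1.82% were higher and the median change was -0.20. Of 35 Zbtb genes, which join zinc fingers to a BTB domain, 8 were lower and none higher, with a median change of -0.59, and 5 were lower after centring, beside 0.719% of all genes. Of 11 Zscan and Zkscan genes 3 were lower, with a median of -0.76. Among 11 Klf genes none was lower and 2 were higher, with a median of -0.37. Among 16 Zc3h genes, whose CCCH fingers bind RNA, none was lower and 2 were higher, with a median of -0.19.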

How the data were processed

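RNA-Seq and GRO-Seq values were, per the file headers, log2 values that the authors made with HOMER from exon tags per 10 M sequenced tags on mm9. A level here is 2 to the deposited value, minus 1, with no correction for length. The submitters' processing notes name Bowtie 0.12.7 and HOMER. Each ChIP-Seq list was deposited by library, per the file headers, with a signal of normalized tags per 10 M in the peak. Factor peaks were called with HOMER against input at a false discovery rate of 0.001.

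For each symbol the transcript with the highest mean RNA-Seq level was kept. Genes needed 20 tags per 10 M in 2 libraries of the assay. limma 3.58.1 in R 4.3.3 fitted log2(level + 10) with treatment and strain as terms, with a variance trend and Benjamini-Hochberg adjustment over all genes tested. RNA-Seq and GRO-Seq were fitted together for the difference of their changes. The RNA-Seq model had 2 residual degrees of freedom. Depth and the level behind a value limit its precision, and ChIP-Seq values have no test.

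Members and lists were chosen with earlier results of these data known. The genes named are the 8 called members with the lowest and the 5 with the highest change at RNA-Seq 1 hr, RNA-Seq 4 hr and GRO-Seq 1 hr, and the 5 in each direction for 4 hr against 1 hr, for strain and for GRO-Seq minus RNA-Seq. The 5 highest per kb, the ends of each cluster at 4 hr, the called partner genes and members called in opposite directions were named too. Other genes named within clusters, by motif or by p65 rank were picked after their values were seen, as were the level band, the other families, the values by strain and 2 of the motifs. A planned look at protein features was not made, as no protein sequences were at hand. Promoters came from RefSeq on GRCm38.p6 by symbol and peaks from mm9, and their coordinates were never joined.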

Additional observations from a re-analysis of the deposited data

How the results depend on the processing

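Each value is the number of called members. Where 1 library was left out, its treatment kept only 1 library, and the share of all genes called moved too. Such counts therefore do not set members against all genes. A mean of 50 or more left 151 members in RNA-Seq, 100 in GRO-Seq and 93 in their difference, so its counts are out of fewer members. For 4 hr against 1 hr the share higher was 7.95% of members there, as in the main fit, beside 9.04% of all genes. In RNA-Seq at 1 hr the 42 lower members became 22 at a mean of 50 or more, 27 after centring, 7 without the level filter and 6 at a pseudocount of 50, and leaving out 1 library gave 28 to 66, the highest without the C57BL6/J library at 1 hr. At 4 hr the 6 higher became 10 after centring and 3 at a pseudocount of 50 (4 to 8 without 1 library), and the 49 lower became 11 and 13 (35 to 69). For 4 hr against 1 hr the 19 higher became 12 at a mean of 50, 31 after centring and 7 at a pseudocount of 50 (16 to 26), and the 11 lower became 6 at that pseudocount (10 to 16). For strain in RNA-Seq the 1 higher became 0 at a mean of 50, without the filter and at a pseudocount of 50, and 2 at a pseudocount of 2 (1 to 2). The 3 lower became 1 at a mean of 50, 5 at a pseudocount of 2 and 0 at 50 (3 to 5). In GRO-Seq the 2 higher became 1 at a mean of 50 or a pseudocount of 50 and 5 after centring. The 55 lower became 19 at a mean of 50, 20 after centring and 4 at a pseudocount of 50. At a mean of 50 the shares higher and lower were 1% and 19% of members, beside 5.97% and 14.7% of all genes. For strain in GRO-Seq, 0 higher became 1 after centring, and 1 lower became 0 at a mean of 50 or a pseudocount of 50 and 2 without the filter. For GRO-Seq minus RNA-Seq the 19 higher became 9 at a mean of 50, 3 without the filter and 3 at a pseudocount of 50 (9.68, 1.26 and 1.47% of members, beside 5.88, 0.739 and 1.99% of all genes). The 12 lower became 5, 4 and 2 there and 22 at a pseudocount of 2. The causes were not tested. Among 57 changes of named members none turned its direction under any setting run, which their choice by call and size made likely beforehand. A pseudocount of 50 ended 27 of those calls, no filter 8 and centring 1. Leaving out a single library also ended the calls of Zfp281, Zfp945 and Zfp874a, as given above. Strain was a term of every fit, so KLA and no treatment were compared within strain. By replicate number, no paired analysis was possible because only p65 ChIP-Seq shares such numbers between strains, and its peak lists enter no test.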
